A study of Cyanidioschyzon merolae with 8 samples.

Results

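The nuclear genome of the unicellular red alga Cyanidioschyzon merolae is carried on 20 chromosomes, and the genes next to their 40 ends are described here. A gene ID was taken as an end gene where its whole locus in the deposited table lay within the first 20 kb of a chromosome or within 20 kb of the largest locus end on that chromosome, which stood in for its length. This gave 169 of 4793 nuclear IDs, which is 3.53% of them, out of 5092 IDs in all. All 169 match protein-coding genes in the RefSeq table of the species, which gives neither a name nor a role for any of them, so genes are called by their IDs.

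Cells of the wild type of strain 10D were grown at 42 °C and pH 2.3 in constant light, at 100 µmol m-2 s-1. The 8 libraries form 4 groups of 2 biological replicates: blue light, its dark control (the blue dark control), red light and its own dark control (the red dark control). Per the labels, cells were kept dark and then given 30 min of blue light at 15 µmol m-2 s-1 or of red light, whose intensity is not stated there. The protocol gives 36 h of darkness in its account of the blue experiment and speaks of dark-kept cells for the red one. The authors deposited 1 FPKM value per condition (fragments scaled to transcript length and sequencing depth, so that levels of different genes can be compared) with the replicates already combined. The spread between replicates therefore cannot be printed, the depth is unknown, and tests are those of the authors. An ID counts as having risen or fallen where it was tested and the authors' q-value, a p-value corrected for the number of tests, is under 0.05. Differences between end genes and other nuclear genes were not tested, since genes are not replicates of a condition. The sources used here do not say whether the blue and the red experiment were scaled together.

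A linear chromosome ends in a telomere, an array of short repeats that protects the DNA. The stretch next to it, the subtelomere, in many species holds repeated segments and members of gene families that also occur at other ends. In budding yeast, chromatin that spreads inward from the telomere can silence genes placed near it. How strongly genes near an end are transcribed, and whether they take part in responses of the cell, is therefore a common question about chromosome ends.

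The median transcript level of end genes was lower than that of the rest of the nuclear genes in all 4 conditions. Their median level was 76.1 FPKM under blue light, against 98.1 FPKM for the other 4624 nuclear IDs. In the blue dark control it was 59.99 FPKM for end genes and 100 FPKM for the others. Under red light the medians were 68.3 FPKM and 99.3 FPKM, and in the red dark control 62.2 FPKM and 113 FPKM. Taken as a ratio, the gap was wider at the lower quartile than at the median or the upper quartile. The lower quartile of end genes was 18.1 FPKM under blue light, 12.02 FPKM in its dark control, 10.2 FPKM under red light and 8.51 FPKM in its dark control. For the other nuclear IDs it was 54.6, 46.7, 51.2 and 52.6 FPKM in the same order of conditions. Upper quartiles stood closer together as a ratio, at 164 FPKM for end genes and 188 FPKM for the others under blue light.

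Nearly silent genes made up a larger share of end genes than of other genes. The level stayed under 10 FPKM in every condition for 32 end genes, 18.9% of them, against 4.28% of the other nuclear IDs. Of the end genes, 14 were listed at 0 in all 4 conditions, 8.28% against 1.41% of the others. An exact 0 in such a table can also be a failed estimate. At the other extreme, 10 end genes, or 5.92%, averaged at least 500 FPKM, against 6.86% of the others. The authors' tests left out mostly IDs of low level, and a larger share of end genes. Over the IDs tested under both lights, the 118 end genes had the higher medians, at 115 FPKM against 108 FPKM for 4237 others under blue light and 122 against 110 FPKM in its dark control. Under red light these were 121 FPKM for end genes and 108 FPKM for the others, and in its dark control 132 and 125 FPKM. Since being tested goes with level, leaving out untested IDs by itself raises the medians of end genes more than those of the others. Within 5 kb of an end, the 16 IDs tested under both lights stayed lower. Their medians were 67.9, 79.8, 63.3 and 72.9 FPKM in the same order of conditions. In each 5 kb step from 5 to 20 kb, the medians of tested IDs lay above those of the others. Locus spans were alike, with medians of 1249 bp for end genes and 1307 bp for the others.

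The low levels lay mostly within 10 kb of the ends. Loci that reached no further than 5 kb from an end had a median of 43.4 FPKM under blue light, 36.2 FPKM in its dark control, 17.5 FPKM under red light and 25.4 FPKM in its dark control, over 28 IDs. For the 48 IDs that reached between 5 and 10 kb the medians were 42.0, 33.3, 47.1 and 25.6 FPKM in the same order. Between 10 and 15 kb they were 88.5, 98.2, 76.0 and 85.2 FPKM, and between 15 and 20 kb 117, 92.01, 132 and 130 FPKM. From 20 to 30 kb, where genes no longer count as end genes, they were 84.9, 97.9, 95.5 and 92.7 FPKM. In all 4 conditions the level beyond 10 kb, still inside the 20 kb window, was higher than in both bins nearer the end. Under red light and in its dark control it was higher in each bin than in the one before, up to 20 kb. In the red dark control the first of these rises was slight, from 25.4 to 25.6 FPKM. Of the 76 IDs within 10 kb, 24 stayed under 10 FPKM in all conditions, against 8 of the 93 IDs from there to 20 kb. These 24 were 6 of the 28 IDs within 5 kb and 18 of the 48 IDs from 5 to 10 kb. Among the 232 IDs of the next 20 kb inward the share was 4.74%, close to the 4.28% of all nuclear IDs beyond the window. Across the 169 end genes, Spearman's rho between the reach of the locus from the end and its level was 0.32 under blue light, 0.23 in its dark control, 0.32 under red light and 0.32 in its dark control. Neighbouring genes share a chromosome end, so these coefficients are descriptions. The last ID inside the window was CMS498C, at 148 FPKM under blue light, 424 FPKM in its dark control, 240 FPKM under red light and 331 FPKM in its dark control. The first outside was CMG006C, at 33.4, 40.8, 44.8 and 103 FPKM in the same order.

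**Figure D1:**
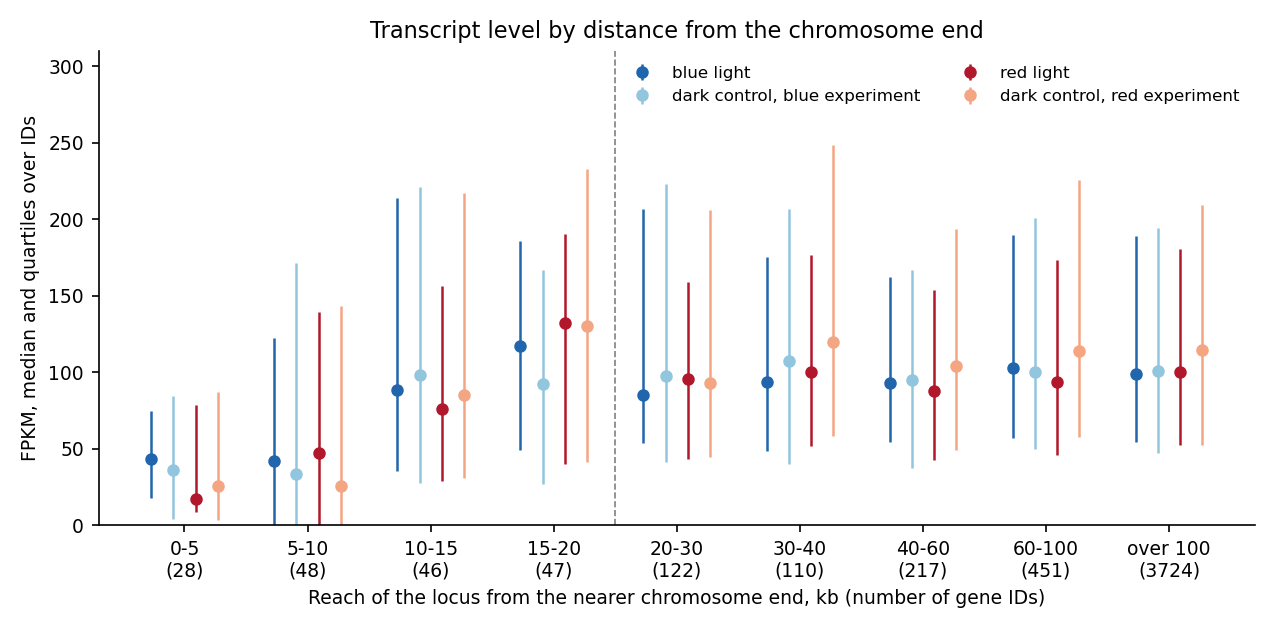
Median FPKM (points) with quartiles (bars) over gene IDs, by the reach of the locus from the nearer chromosome end in kb, for the 4 conditions, with the number of IDs in brackets; the dashed line marks the 20 kb bound. Medians within 10 kb lie between 17.5 and 47.1 FPKM, and from 20 kb on they lie between 84.9 and 120 FPKM.

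The ends themselves were unlike each other. Each end held 1 to 7 end genes, with a median of 4. The 75 IDs at left ends had a median of 55.8 FPKM under blue light and 42.8 FPKM in its dark control, and the 94 IDs at right ends 85.3 and 71.4 FPKM. Under red light the medians were 55.5 FPKM at left ends and 74.997 FPKM at right ends, and in its dark control 48.7 and 76.7 FPKM. The outermost IDs of left ends began 1344 to 6557 bp from position 0. At right ends the outermost ID touches the bound by construction, because the largest locus end was taken as the length. The left and right windows, and the distance bins within them, therefore do not cover the same stretch of DNA. The median level of the end genes was below that of the other genes of the same chromosome on 15 of 20 chromosomes under blue light, 13 in its dark control, 15 under red light and 13 in its dark control. It was below in all 4 conditions on 13 chromosomes and above in all 4 on chromosomes 2, 6, 13 and 19.

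The outermost ID of each end spanned the whole range of levels. Its mean over the 4 conditions had a median of 18.3 FPKM over the 40 ends, stayed under 10 FPKM in every condition at 12 left and 5 right ends, and was 0 at 7 ends. The highest was CMP002C at the left end of chromosome 16, at 4033 to 6323, with 620 FPKM under blue light, 2502 FPKM in its dark control, 554 FPKM under red light and 3405 FPKM in its dark control. The next were CMC002C on chromosome 3, which averaged 461 FPKM, CMF001C on chromosome 6 with 235 FPKM and CMM002C on chromosome 13 with 203 FPKM. All 4 lie at left ends, the side with more of the nearly silent outermost genes.

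Some ends were quiet across nearly all of their 20 kb. At the left end of chromosome 12, the 6 end genes averaged between 0 and 12.3 FPKM, and CML001C, CML002C and CML003C were listed at 0 in every condition. At the left end of chromosome 17, the 7 end genes averaged between 0 and 30.9 FPKM, with CMQ002C and CMQ003C at 0 throughout. At the right end of chromosome 10, the 7 end genes averaged between 0 and 29.3 FPKM, with CMJ311C and CMJ318C at 0. The other IDs at 0 in all 4 conditions were CMB162C, CMD190C, CMG003C, CMN001C, CMO001C, CMS002C and CMT003C, each at a different end. Other ends carried active genes up to the outermost ID. At the left end of chromosome 16 the 7 end genes averaged between 39.2 and 1770 FPKM, and at the left end of chromosome 13 the 6 end genes averaged between 73.5 and 452 FPKM. At the right end of chromosome 20, the 7 end genes averaged between 71.2 and 615 FPKM.

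**Figure D2:**
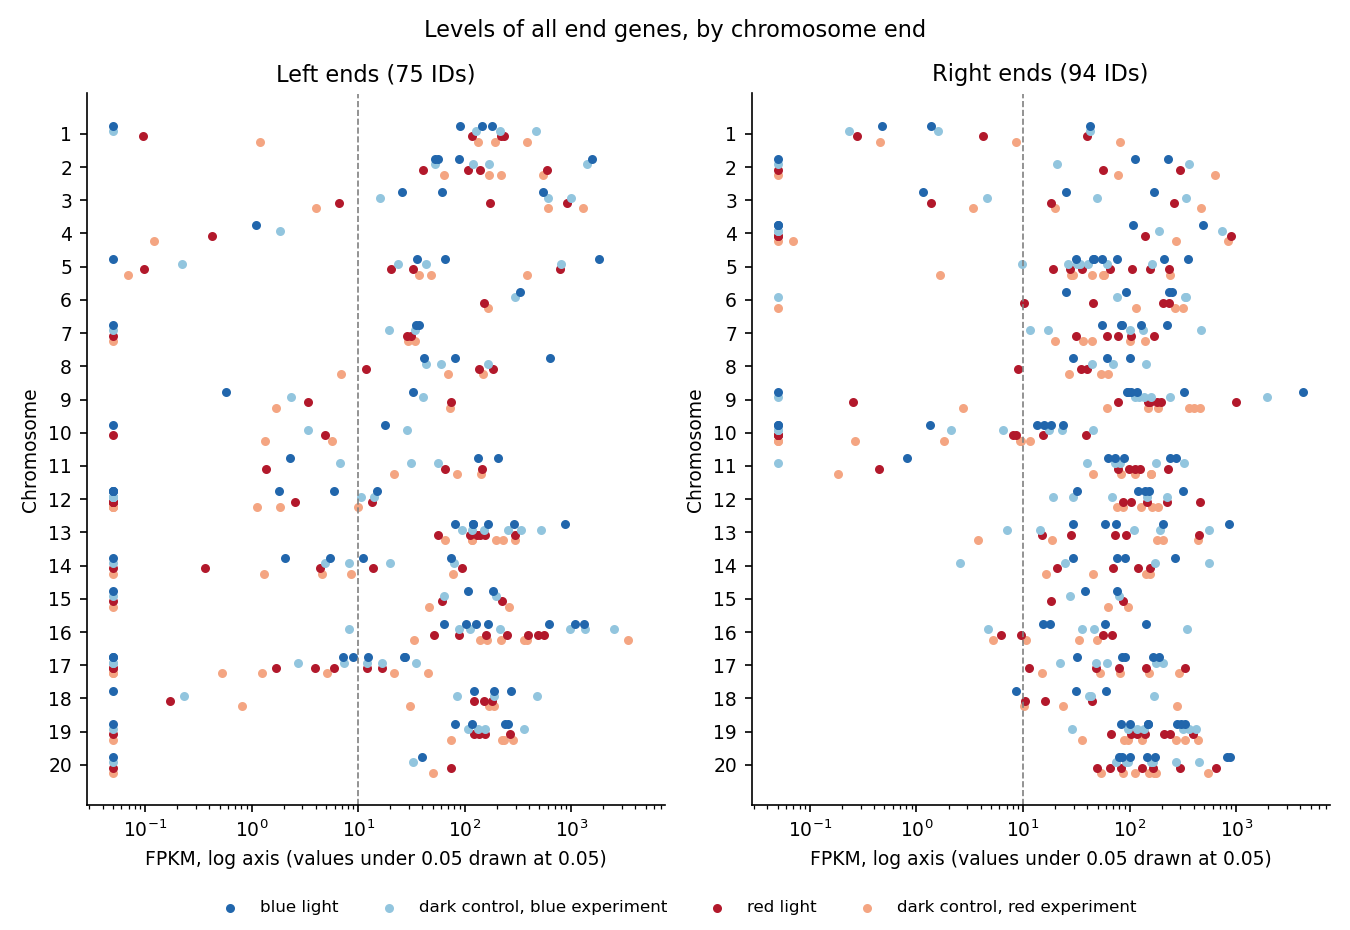
FPKM of all 169 end genes (log axis; values under 0.05, listed zeros included, are drawn at 0.05) for each chromosome, left ends and right ends apart, with 1 point per gene and condition; the dashed line marks 10 FPKM. The points of the left ends of chromosomes 12 and 17 and the right end of chromosome 10 lie mostly under 10 FPKM, whereas those of the left ends of chromosomes 13 and 16 lie between 8.19 and 3405 FPKM.

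Loci of the same length recurred at the same place on different chromosomes. A set of 21 end genes at 12 ends shared its exact locus span with an ID at another end of the same side that lay within 400 bp of the same reach, in 3 trios and 6 pairs. At any place, 44 end genes shared their span with another end gene, including 4 that share a locus. The outermost ID of a right end has a reach equal to its span, so equal spans there give equal places by construction. How many matches would arise by chance was not estimated. CMS002C on chromosome 19 and CMT003C on chromosome 20 both stand at 3519 to 5401 and were listed at 0 in every condition. CMA145C, CMC188C and CMI306C are the outermost IDs of the right ends of chromosomes 1, 3 and 9, and each spans 1065 bp; they averaged 3.92, 2.64 and 0.744 FPKM. CML007C, CMN006C and CMQ006C, on chromosomes 12, 14 and 17, span 1131 bp and averaged 6.07, 5.65 and 8.34 FPKM. Not every such set was uniform. CML002C and CMQ002C, which span 517 bp, were at 0 in every condition, whereas CMN002C of the same span and place stood at 74.4 FPKM under blue light, 79.9 FPKM in its dark control, 93.8 FPKM under red light and 78.4 FPKM in its dark control. CMN340C and CMS508C, both outermost at right ends and 2190 bp long, averaged 17.3 and 153 FPKM. CMI004C and CMT006C, of 2514 bp, averaged 54.9 and 49.5 FPKM.

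The 21 IDs had medians of 2.05 FPKM under blue light, 4.63 FPKM in its dark control, 2.57 FPKM under red light and 3.41 FPKM in its dark control. Their sequences were not analysed here. Where they are near-identical copies, their reads cannot be placed with certainty and their single values are uncertain; this was not tested. Without these 21 IDs, chosen after the data were seen, the remaining 148 end genes had medians of 85.5, 73.3, 78.5 and 79.1 FPKM, which is still below the 98.1, 100, 99.3 and 113 FPKM of the other nuclear IDs.

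The first light comparison set blue light against its dark control. Of all tested IDs of the table, 22.2% rose and 18.4% fell. Of the 169 end genes, 130 were tested, or 76.9%, against 93.3% of the other nuclear IDs. Of those tested, 25 rose, which is 19.2%, 21 fell, which is 16.2%, and 84 did not pass the threshold. Among the other nuclear IDs tested, 22.3% rose and 18.7% fell. The shares for end genes are close to this background. At a stricter q-value of under 0.01, 20 end genes rose and 14 fell, which is 15.4% and 10.8% of those tested, against 16.5% and 11.3% over the table. The median log2 ratio of blue light over dark was 0.06 for 129 end genes with a ratio and -0.02 for 4306 others, with the middle 50% of end genes between -0.47 and 0.70 and of the others between -0.65 and 0.75. At 9 of the 40 ends no end gene was called under either light, but at each of these at most 2 IDs were tested per light. None was tested at the left ends of chromosomes 4 and 12, and 1 under each light at the left end of chromosome 14. At the right end of chromosome 10, 2 were tested under blue light and 1 under red light. An untested ID cannot be called, so the lack of calls does not show that these ends did not respond. The 39 end genes that were not tested under blue light were not tested under red light either, and none of them exceeded 21.6 FPKM in any condition.

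The 6 largest rises past the threshold under blue light, among IDs with both values above 0, started from dark levels of 2.55 to 40.6 FPKM. Choosing genes by their ratio by itself favours low dark levels. CMP354C, on chromosome 16 at 886995 to 888805, had 142 FPKM under blue light and 4.64 FPKM in the dark control, which is a log2 ratio of 4.94. In the authors' deposited table its q-value was 0.00045. CME194C, on chromosome 5 at 504077 to 505409, stood at 350 FPKM under blue light and 40.6 FPKM in the dark, with a log2 ratio of 3.11 and the same q-value. Both genes lie at right ends, between 15 and 20 kb from the bound. CMN340C, the outermost ID at the right end of chromosome 14, had 29.4 FPKM under blue light and 2.55 FPKM in the dark, a log2 ratio of 3.53 with q = 0.0104. CMS508C, of the same span and place on chromosome 19, also rose, with 281 FPKM under blue light and 118 FPKM in the dark and a log2 ratio of 1.25. CMM334C, on chromosome 13, had 74.7 and 7.11 FPKM, CMP003C, on chromosome 16, had 63.7 and 8.19 FPKM, and CML336C, on chromosome 12, had 141 FPKM under blue light and 19.2 FPKM in the dark. Their log2 ratios were 3.39, 2.96 and 2.88. CMF187C, the outermost ID at the right end of chromosome 6, was listed at 0 in both dark controls and stood at 25.1 FPKM under blue light with q = 0.00045 and at 10.2 FPKM under red light, where it was not tested.

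Falls under blue light were as steep, and several were those of genes within 7 kb of an end. CMP358C is the outermost ID at the right end of chromosome 16, at 902163 to 904479. It had 15.4 FPKM under blue light and 342 FPKM in the dark. The log2 ratio was -4.48, and the authors' deposited table gives q = 0.00045. CMR500C, on chromosome 18 at 1232429 to 1236284, had 8.56 FPKM under blue light and 168 FPKM in the dark, with a log2 ratio of -4.29. CMC002C, outermost at the left end of chromosome 3 at 4014 to 6349, had 61.5 FPKM under blue light and 998 FPKM in the dark, with a log2 ratio of -4.02. CMP002C, described above as the highest outermost gene, fell by 2.01 on the log2 scale with q = 0.0158. CMN338C and CMG217C, which share a span of 1212 bp and a place 5849 and 5513 bp in from the right ends of chromosomes 14 and 7, both fell. CMN338C had 90.0 FPKM under blue light and 551 FPKM in the dark, and CMG217C 83.6 and 468 FPKM, with log2 ratios of -2.61 and -2.48. If they are copies of 1 gene, these changes are not independent; that was not tested.

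The second light comparison set red light against its own dark control. Of all tested IDs of the table, 14.9% rose and 27.1% fell. Of the end genes 118 were tested, or 69.8%, against 92.4% of the other nuclear IDs. Of those tested, 13 rose, which is 11.02%, 25 fell, which is 21.2%, and 80 did not pass the threshold. Among the other nuclear IDs tested, 14.6% rose and 27.6% fell. Both shares of end genes lie somewhat under the background, and no test was made of this. At a q-value of under 0.01, 7 end genes rose and 16 fell, 5.93% and 13.6% of those tested, against 9.80% and 18.7% over the table. The median log2 ratio was -0.14 over 118 end genes and -0.27 over 4267 others. All tested nuclear IDs together had a median of -0.26, so relative to that shift end genes stood higher by 0.13. The middle 50% of ratios ran from -0.62 to 0.28 for end genes and from -0.81 to 0.41 for the others.

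The largest rises under red light were again those of CMP354C and CME194C. CMP354C had 68.3 FPKM under red light and 10.8 FPKM in the dark, a log2 ratio of 2.67, and CME194C had 155 FPKM under red light and 28.2 FPKM in the dark, a log2 ratio of 2.45. Both have q = 0.00045 in the authors' deposited table. CMR004C, on chromosome 18 at 14373 to 14997, had 121 FPKM under red light and 30.4 FPKM in the dark, with a log2 ratio of 1.99 and q = 0.00446. CMP007C, on chromosome 16 at 15421 to 15848, had 491 and 138 FPKM, with a log2 ratio of 1.835. CML339C, the outermost ID at the right end of chromosome 12, stood at 459 FPKM under red light and 129 FPKM in the dark, with a log2 ratio of 1.83 and q = 0.000817. CML339C was nearly level under blue light, at 32.1 FPKM against 29.4 FPKM in the blue dark control. CMI298C, on chromosome 9, had 179 FPKM under red light and 61.1 FPKM in the dark, with a log2 ratio of 1.55.

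The largest falls under red light included 3 genes that had also fallen steeply under blue light. CMR500C had 44.1 FPKM under red light and 278 FPKM in the dark, a log2 ratio of -2.65 with q = 0.00045. CMC002C had 173 and 609 FPKM, and CMP358C 9.62 FPKM under red light and 33.5 FPKM in the dark, with log2 ratios of -1.81 and -1.80. CMP005C, on chromosome 16 at 12139 to 13658, had 88.6 FPKM under red light and 386 FPKM in the dark, with a log2 ratio of -2.12. CMO355C, on chromosome 15, had 18.4 and 62.2 FPKM, and CMH282C, on chromosome 8, 8.97 FPKM under red light and 27.1 FPKM in the dark. Their log2 ratios were -1.76 and -1.60. CMP002C had 554 FPKM under red light and 3405 FPKM in the dark, a log2 ratio of -2.62 that did not pass the threshold, with q = 0.433. The longest run of neighbouring end genes called in 1 direction had 3 members, CMI299C, CMI300C and CMI301C at the right end of chromosome 9. They stood at 197, 148 and 77.2 FPKM under red light, against 403, 359 and 185 FPKM in the dark, and their largest q-value was 0.00694. Under blue light CMI299C alone of these passed the threshold, with a log2 ratio of -1.04.

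**Figure D3:**
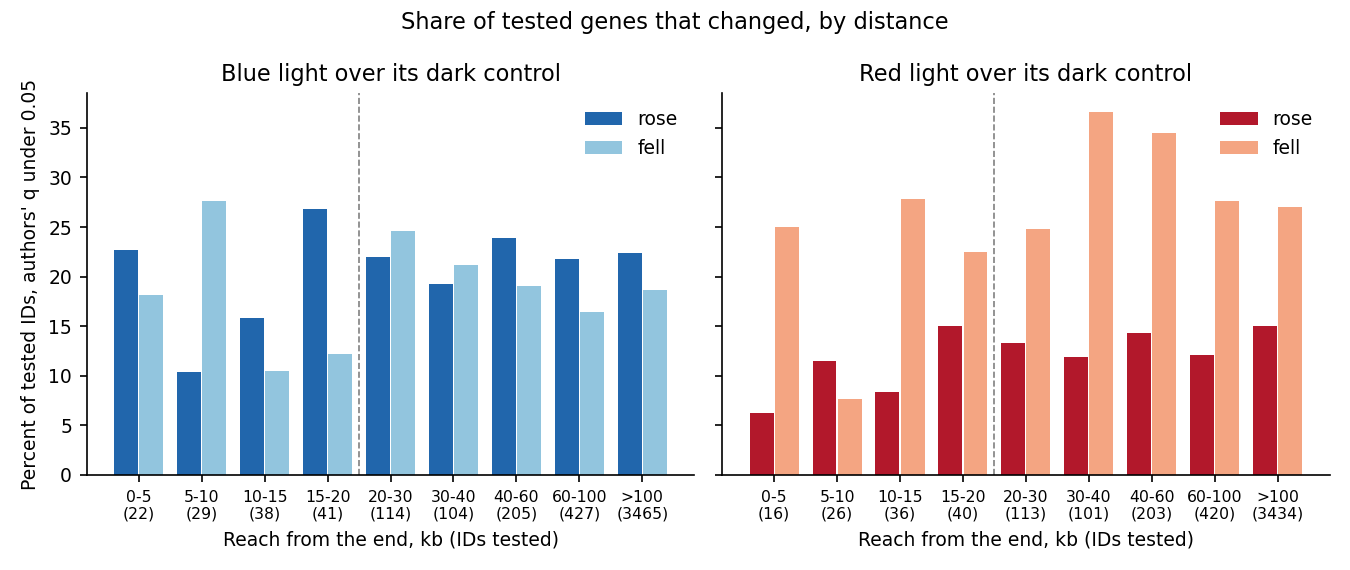
Percent of tested gene IDs that rose or fell at the authors' q-value under 0.05, by the reach of the locus from the chromosome end in kb, for blue light (left) and red light (right), each over its dark control; the number tested is in brackets and the dashed line marks the 20 kb bound. Within 20 kb the bins hold 16 to 41 tested IDs each and show no steady trend, with rises under blue light between 10.3% and 26.8%.

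**Figure D4:**
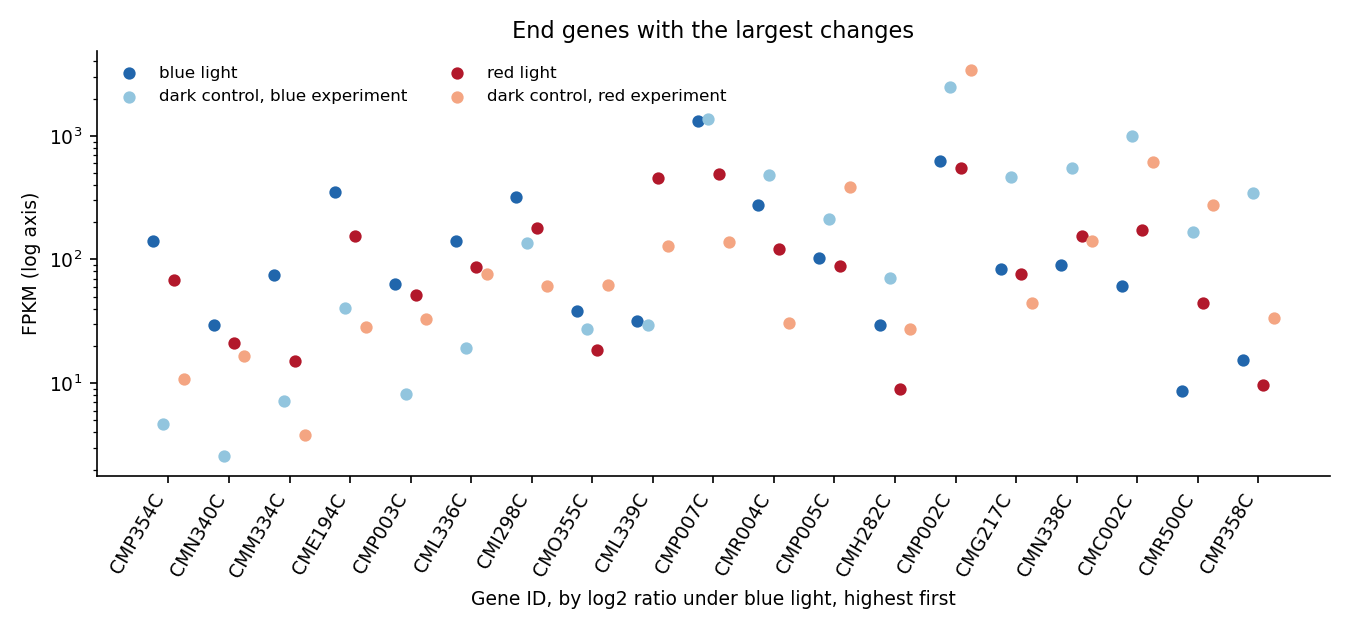
FPKM (log axis) in the 4 conditions for the 19 end genes with the largest rises or falls under either light, ordered by the log2 ratio under blue light; each point is the authors' value for 1 condition. CMP354C and CME194C lie above their dark controls under both lights, and CMC002C, CMR500C and CMP358C below.

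Across 118 end genes tested under both lights, 6 rose under both and 12 fell under both. Among 4228 other nuclear IDs these counts were 452 and 495. As a share of its set, each count was smaller for end genes, and the gap was wider for the rises than for the falls. Neither gap was tested. At least 1 light gave a call for 59 of the 118, or 50.0%, against 59.6% of the others. The 6 shared rises were those of CMP354C, CME194C, CMH006C, CMI298C, CMS004C and CME004C. CMH006C, on chromosome 8, had 634 FPKM under blue light and 165 FPKM in its dark control, and 183 FPKM under red light and 69.2 FPKM in its dark control. CME004C was among the most abundant end genes, with 1808 FPKM under blue light and 802 FPKM in its dark control, and 775 FPKM under red light and 382 FPKM in its dark control. The log2 ratios under both lights had a Pearson's r of 0.62 over end genes and 0.68 over the others, and Spearman's rho 0.57 and 0.66. These are across genes, which are not independent replicates, and the experiments share no libraries. The 12 shared falls were those of CMA007C, CMB002C, CMC002C, CMC183C, CMD186C, CMH282C, CMI299C, CMM002C, CMM331C, CMP005C, CMP358C and CMR500C, on 9 chromosomes. CMA007C had 180 FPKM under blue light and 465 FPKM in the dark, and 220 FPKM under red light and 387 FPKM in the dark. CMM002C, an outermost gene, had 120 and 257 FPKM in the blue experiment and 140 and 295 FPKM in the red experiment, light before dark. A pair of end genes, CMG217C and CMR004C, passed the threshold in opposite directions, falling under blue light and rising under red light. Their weaker calls, with q = 0.0368 for CMG217C under red light and 0.0265 for CMR004C under blue light, are lost at a q-value of under 0.01, which leaves no such pair. No end gene of the 118 did the reverse. Of the 4228 other nuclear IDs, 24 did so and 19 followed the pattern of this pair. As a share of its set, the pattern of this pair was more frequent among end genes, though it rests on this pair alone. Opposite calls were thus few in both sets, and the difference was not tested.

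**Figure D5:**
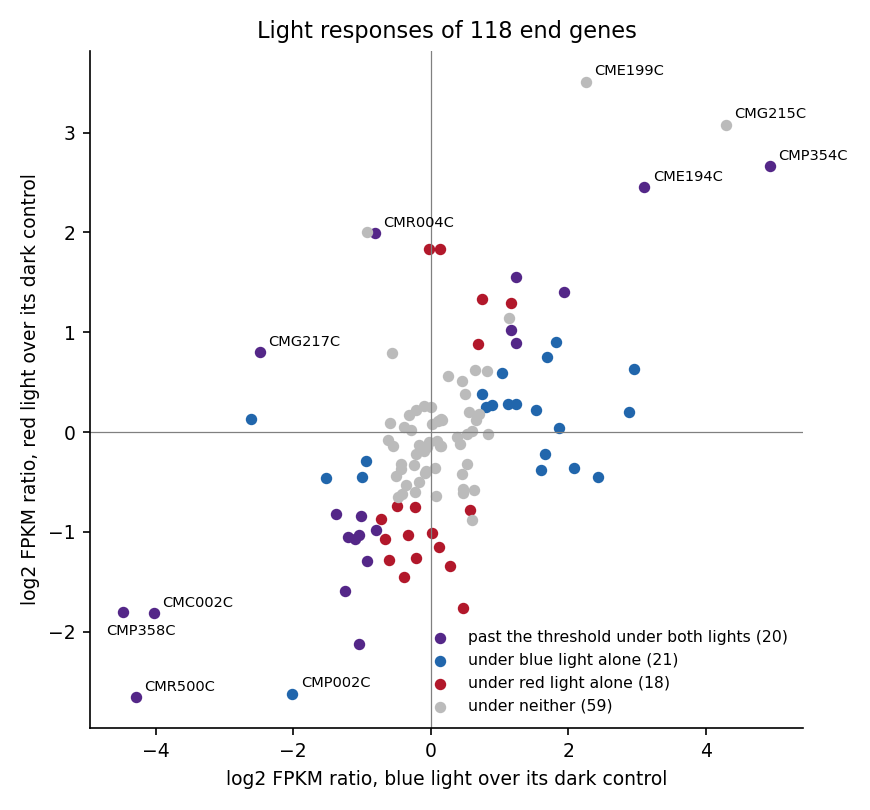
Log2 FPKM ratio under red light (vertical) against that under blue light (horizontal), each over its dark control, for 118 end genes tested under both; colours mark the light under which an ID passed the authors' q-value of 0.05, with counts in the key. CMP354C and CME194C lie at the upper right, CMR500C, CMP358C and CMC002C at the lower left, and CMG217C and CMR004C at the upper left.

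The dark controls of the 2 experiments differed for a share of end genes. Over all nuclear IDs tested under both lights, 23.4% differed at least 2-fold between the red and the blue dark control. Among the 118 end genes it was 33, or 28.0%, of which 15 were higher and 18 lower in the red experiment. Those are 12.7% and 15.3% of the 118, against 12.1% and 11.3% of all nuclear IDs. A difference of at least 8-fold occurred for 4 end genes, 3.39% of them, against 1.54% of the others, and each of the 4 stood lower in the red experiment. CMR004C had 30.4 FPKM in the red dark control and 480 FPKM in the blue dark control, and CMP007C 138 and 1356 FPKM. CMG217C had 44.3 and 468 FPKM, and CMP358C 33.5 FPKM in the red and 342 FPKM in the blue experiment. Each of these 4 is named above for its response to light, and each response is measured from these unequal dark levels. Between the lit conditions 31 end genes, or 26.3%, differed at least 2-fold, against 21.8% of all nuclear IDs, and 6 of them were higher and 25 lower under red than under blue light, 5.08% and 21.2%, against 7.06% and 14.7% of all nuclear IDs. The widest was CML339C, at 459 FPKM under red light and 32.1 FPKM under blue light. None of these differences between the experiments has a test.

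The most abundant end gene was CMI304C, on chromosome 9 at 799338 to 800614, within 7 kb of the right end. It stood at 4277 FPKM under blue light, 1940 FPKM in its dark control, 1000 FPKM under red light and 454 FPKM in its dark control. Its log2 ratio was 1.14 under both lights and did not pass the threshold, with q = 0.184 and 0.148 in the authors' deposited table. CMB004C, on chromosome 2, had 1556 and 1403 FPKM in the blue experiment and 596 and 542 FPKM in the red experiment, light before dark. CMC008C, on chromosome 3, had 542 and 610 FPKM in the blue experiment and 912 and 1288 FPKM in the red experiment. Neither passed the threshold under either light. For CMI304C, CMB004C and CMC008C the level thus differed more between the experiments than between light and dark. CMI304C and CMB004C stood higher in the blue experiment, and CMC008C in the red experiment. These differences between the experiments have no test.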

How the data were processed

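RNA of 8 libraries was selected on oligo(dT) beads and sequenced as 75 bp read pairs on a MiSeq, per the labels' protocols. These name no step that keeps the strand, so overlapping genes may share reads. Tools named in the submitters' processing notes are Cuffdiff, TopHat, TopHat2 2.0.5, Trimmomatic 0.32 and FastQC 0.11.5. The sources used here do not give the build and annotation. The authors deposited FPKM, 1 value per condition with replicates combined, so no SD, depth or leave-one-out value can be given. Each p-value and q-value that the authors deposited was used as it stands; the sources used here do not say over which tests q was adjusted. Positions are those of the deposited table. Log2 ratios of light over dark were computed from the deposited FPKM with no pseudocount, over IDs with both values above 0.

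The end genes, lists and thresholds were chosen with earlier results of these data known. IDs were named by a rule: per light the 6 largest rises and the 6 largest falls past the threshold; those past it but listed at 0 in 1 condition; the 6 highest mean levels; opposite calls; the 4 highest outermost IDs; those next to the 20 kb bound; and the longest run of calls. CMH006C, CMS004C, the IDs at 0 and those of equal span were named after their values were seen. Alternatives varied the window, the overlap, the loci kept, the threshold, the pseudocount and centring. Python 3.11.15, numpy 2.4.6, pandas 2.3.3, scipy 1.17.1 and matplotlib 3.10.9 were used, and the code was tested on simulated data. No sequence is printed.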

Additional observations from a re-analysis of the deposited data

Results flagged for a closer look

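CMG217C and CMR004C passed the authors' threshold in opposite directions under the 2 lights. CMG217C had a log2 ratio of -2.48 under blue light, with 83.6 FPKM in the light and 468 FPKM in the dark, and of 0.80 under red light, with 77.0 FPKM in the light and 44.3 FPKM in the dark. CMR004C had a log2 ratio of -0.81 under blue light, with 274 FPKM in the light and 480 FPKM in the dark, and of 1.99 under red light, with 121 FPKM in the light and 30.4 FPKM in the dark. In the authors' deposited table the q-value of CMG217C under red light was 0.0368 and that of CMR004C under blue light 0.0265, so at a q-value of under 0.01 neither keeps both calls. The difference between the lights was not tested for either gene. CMN338C, of the same span and place as CMG217C, had log2 ratios of -2.61 and 0.13.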

How the results depend on the processing

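The 10 medians and shares for end genes were recalculated 92 times under other settings. Of these, 3 changed sign and were set apart, whether inside the 95% binomial interval of the reported value or not. Of the rest, 81 stayed within that interval and 8 moved outside it. The interval treats gene IDs as independent, which they are not, and several settings kept nearly the same IDs. It serves only as a scale for the size of a shift. With a 10 kb window the median levels were 43.4 FPKM under blue light, 33.3 FPKM in its dark control, 24.2 FPKM under red light and 25.4 FPKM in its dark control. With a 50 kb window the dark controls stood at 93.1 FPKM in the blue and 92.9 FPKM in the red experiment. At a q-value under 0.01, 5.93% of tested end genes rose and 13.6% fell under red light, which is 7 and 16 IDs in place of 13 and 25; under blue light 20 rose and 14 fell in place of 25 and 21. The median log2 ratio under blue light was -0.041 with a 10 kb window and -0.032 where any overlap with the window counted, and that under red light was 0.13 after centring on the nuclear median. Of 232 such values for single genes, those with a pseudocount or centring could change direction but not their call. Those with q judged otherwise could change their call but not direction. At a q-value under 0.01, 7 lost their call and 51 were unchanged, among them values with no call to lose. The 7 were those of CMH282C under both lights, CMN340C, CMP002C and CMR004C under blue light, and CME004C and CMG217C under red light. Adjusting q within each comparison left all 58 values unchanged. The log2 ratio of CMF001C under red light, which had no call, changed sign from -0.14 to 0.13 on centring. The other ratios with a pseudocount or centring kept their direction. Leaving out IDs of equal span and place, or, for the levels, the left ends of chromosomes 12, 14 and 17 and the right end of chromosome 10, both chosen after seeing the data, kept values within the interval. Without those 4 ends, the 144 remaining end genes had medians of 90.2 FPKM under blue light and 86.5 FPKM in its dark control. Under red light the median was 88.0 FPKM, and in its dark control 85.3 FPKM. These lay closer to the 98.1, 100, 99.3 and 113 FPKM of the other nuclear IDs, and still below them. Chromosome lengths from the reference were not run because the build of the table is not named, and a filter on near-identical proteins was not run because no protein sequences were used here. No paired analysis was possible because the table holds no values per library. Depth is unknown, which limits every level under 10 FPKM.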

Other observations

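The following pair was chosen after the values were seen. CMG215C, at the right end of chromosome 7 with a locus of 205 bp, had 226 FPKM under blue light and 11.5 FPKM in its dark control, and 170 FPKM under red light and 20.1 FPKM in its dark control. Its log2 ratios of 4.29 and 3.08 did not pass the threshold, with q = 0.372 and 0.358 in the authors' deposited table. CME199C, the outermost ID at the right end of chromosome 5 with a locus of 460 bp, had 46.7 FPKM under blue light and 9.76 FPKM in its dark control, and 19.0 FPKM under red light and 1.66 FPKM in its dark control. Its log2 ratios were 2.26 and 3.51, with q = 0.123 and 0.33. Both stood higher in light than in the dark in both experiments, with no call.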
